A study of Mus musculus with 19 samples.

Results

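The kidneys of mice gavaged with Lactobacillus casei Zhang before ischemia-reperfusion injury were compared with the kidneys of injured mice that received no bacterium. The comparison uses 4 libraries of the gavaged group (IRLacz) and 5 of the injured group (IR), which are 9 of the 19 libraries of the series, and it took them by their group labels alone. The mice were male C57BL/6. The IRLacz mice received the bacterium by mouth for 4 weeks at 1e+09 colony-forming units per day, were then injured, and had their kidneys taken on day 5 after injury. The IR mice were injured without either bacterium, and their kidneys were taken at the same time after it. The remaining groups enter here as levels beside these: 5 libraries of sham kidneys, and 5 of injured mice gavaged on the same schedule with a second strain (IRLac), which by elimination is the L. acidophilus of the study's design. The labels do not say whether the IR mice received a vehicle by gavage, so the strain and the gavage itself cannot be told apart in this comparison. The labels name neither a batch nor the mouse behind a library, so the p-values measure the spread between libraries, which may be partly technical.

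Ischemia-reperfusion injures the proximal tubule first. Surviving tubule cells lose their transporters, re-enter the cell cycle and secrete chemokines, monocytes and macrophages enter the interstitium, and fibroblasts take on a contractile, collagen-producing state. L. casei Zhang is a lactic acid bacterium isolated from fermented mare's milk that is used as a probiotic, and the comparison asks what the injured kidney's RNA looks like when the mouse has received it beforehand.

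Levels were deposited as FPKM, a level scaled to transcript length and to the mapped fragments of the library. An entry was tested where it reached 1 FPKM in at least 4 of the 19 libraries, which left 13594 of 19287 entries. Differences are IRLacz minus IR on log2(FPKM + 1), from a limma fit over the 4 groups, and "rose" and "fell" mean an adjusted p under 0.05. The FPKM of the 9 libraries summed to 545590 to 575205, and between 12750 and 13283 entries reached 1 FPKM in each, with the fewest in IRLacz replicate 1. Kidney markers of several segments were present in each of the 9 libraries: the lowest level was 842 FPKM for the thick ascending limb protein Umod, 767 for the proximal phosphate transporter Slc34a1 and 28.7 for the podocyte surface protein Podxl.

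With all libraries, 733 entries rose in IRLacz (5.39% of those tested) and 1076 fell (7.92%), together 13.3%, and the median log2 difference over all entries was -0.00408. Every IRLacz library lay above every IR library for 725 entries (5.33%) and below for 931 (6.85%). IRLacz replicate 1 stood apart: its mean correlation with the other IRLacz libraries was 0.971, against 0.977 to 0.985 for those 3, and 0.984 to 0.988 among the IR libraries. Without it 656 entries rose (4.83%) and 471 fell (3.46%), and 450 and 445 of these were also called with it. Other libraries moved the counts as well: without IRLacz replicate 2, 269 rose and 505 fell, without IR replicate 3, 231 rose and 375 fell, without IR replicate 2, 354 and 534, and without IR replicate 1, 451 and 638. Each result below is therefore given with and without IRLacz replicate 1, and where a gene given with its library values lost its call without another single library, that is said beside it. For members named in a list's count alone, the range of that count over single libraries left out is given in place of each member's own fits.

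**Figure D1:**
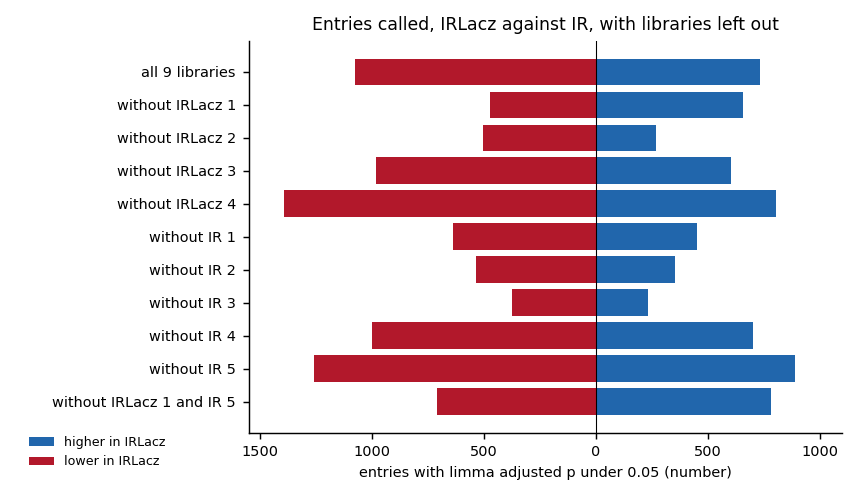
Number of entries called higher (blue, to the right) or lower (red, to the left) in IRLacz than in IR at a limma adjusted p under 0.05, with all 9 libraries and with each library left out in turn. Leaving out IRLacz replicate 1 took the lower calls from 1076 to 471 and the higher calls from 733 to 656.

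In the IRLacz kidneys many genes for matrix, cell division and protein folding had lower RNA. Of the tested members, 63 of 133 of the matrix lists fell, 54 of 116 of the cell cycle lists and 26 of 65 of the proteostasis lists, against 7.92% of all entries. Without IRLacz replicate 1 these counts were 38, 26 and 20, against 3.46%. Immune genes fell in 82 of 216 cases, and in 25 without that library. Genes of the 8 tubule lists rose in 26 of 188 cases and metabolic genes in 33 of 284, against 5.39% of all entries. Without IRLacz replicate 1 they rose in 10 and 14 cases, which are 5.32% and 4.93%, near the 4.83% of all entries. The 188 include 7 urothelial genes and 37 tubular injury genes, and of the injury genes 0 rose with or without that library. The members of these lists were chosen with earlier results known, so the counts describe them and test nothing about the lists.

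Rgs16, a regulator that speeds the shut-off of G protein signals, shared the smallest adjusted p of the named genes with Cav3, a caveolin of muscle. Rgs16 stood at 2.97, 3.2, 3.24 and 3.02 FPKM in the 4 IRLacz libraries, at 12.8, 10.1, 15.2, 10.1 and 9.57 in the 5 IR libraries and at 0.17 to 0.35 in sham. The IRLacz libraries lay within 0.27 FPKM of each other and all below every IR library (log2 difference -1.59 ± 0.19 SE, adjusted p = 0.000436, and 0.00221 without IRLacz replicate 1). Falls and rises were ranked among called entries with a symbol, no group overlap and a mean of at least 5 FPKM in the higher group. The separation of the ranked genes was therefore set by the choice. Bst2 fell further than some of them (log2 difference -1.81) but its groups overlapped, so it was not ranked. Beside Rgs16, the 10 largest falls by this rule included the chemokines Ccl8 and Ccl12, the matrix protein Ccn1 and the cardiac ankyrin repeat protein Ankrd1, both targets of YAP. They also included the macrophage genes Gpnmb, Ms4a6d and Mmp12, and the ribosomal protein Rps18. Ccn1 stood at 22, 36.6, 57.05 and 37.1 in IRLacz and 101, 125, 115, 78.03 and 64.6 in IR (log2 difference -1.35, adjusted p = 0.00658). Ankrd1 stood at 5.87, 9.04, 14.4 and 12.9 in IRLacz and 34.3, 25.7, 33.4, 23.7 and 17.8 in IR (log2 difference -1.31, adjusted p = 0.00568). For both genes replicate 1 was the lowest IRLacz library, and the other 3 still lay below all IR libraries. Rps18 stood at 22.3, 141, 127 and 104 in IRLacz and 469, 426, 350.3, 223 and 314 in IR, with replicate 1 far below the other IRLacz libraries (log2 difference -2.08, adjusted p = 0.0151). Its level is uncertain, since processed copies of ribosomal protein genes are spread over the genome and can share its fragments. Ccn1, Ankrd1 and Rps18 kept their calls without IRLacz replicate 1 (adjusted p from 0.012 to 0.0405).

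By the same rule, which admits no overlap between the groups, the 10 largest rises were Hpd, Igfbp1, Cyp27b1, Ranbp3l, 9530057J20Rik, Depp1, Ell3, Cirbp, Esrrb and Rap1gap. Esrrb passed narrowly (limma adjusted p = 0.0424, and 0.138 without IRLacz replicate 1). Its call was lost without IRLacz replicate 1 or 2 or IR replicate 1, 2 or 3. Cirbp, an RNA-binding protein induced by mild cold, stood at 38.5, 50.8, 43.6 and 60.95 FPKM in IRLacz and 29.6, 17.7, 19.4, 25.7 and 30.1 in IR. All 4 IRLacz libraries lay above every IR library, and also above the 22.4 to 29.6 of sham (log2 difference 0.96 ± 0.15 SE, adjusted p = 0.00435, and 0.00472 without IRLacz replicate 1). Cyp27b1, the enzyme that makes active vitamin D, stood at 7.08, 13.4, 9.95 and 14.3 in IRLacz, 5.58, 4.39, 2.61, 5.09 and 4.44 in IR and 1.84 to 3.56 in sham. The log2 difference of Cyp27b1 was 1.15 with all libraries (limma adjusted p = 0.00843). Replicate 1 was the lowest IRLacz library, so the difference was larger without it (log2 difference 1.34, adjusted p = 0.00984). Ranbp3l, a nuclear export factor for Smad proteins, stood at 17.1, 8.97, 7.87 and 10.3 in IRLacz and 3.86, 4.23, 2.86, 6.47 and 4.26 in IR (log2 difference 1.15, adjusted p = 0.0104). Ell3, an elongation factor of RNA polymerase II, stood at 9.85, 8.91, 6.56 and 6.24 in IRLacz and 3.57, 2.34, 2.59, 4.37 and 4.61 in IR (log2 difference 0.99, adjusted p = 0.00648). In both, replicate 1 was the highest IRLacz library and the other 3 were still above all 5 IR libraries. Depp1, a target of FOXO factors, stood at 7.31, 10.2, 5.79 and 11.5 in IRLacz and 4.4, 2.6, 2.66, 3.4 and 5.6 in IR (log2 difference 1.03 ± 0.28 SE, adjusted p = 0.0251, and 0.0405 without IRLacz replicate 1); its call was lost without IRLacz replicate 2 or 4 or IR replicate 2 or 3 (adjusted p up to 0.0741). Rap1gap, which turns off the small GTPase Rap1, stood at 45.8, 38, 27.9 and 29.8 in IRLacz and 17.1, 20.6, 12.3, 17.8 and 25.5 in IR (log2 difference 0.90 ± 0.26 SE, adjusted p = 0.033, and 0.0953 without IRLacz replicate 1), and its call was lost without IRLacz replicate 1 or 2 or IR replicate 1, 2 or 3 (adjusted p up to 0.0953). Cyp27b1, Ranbp3l and Ell3 kept their calls without IRLacz replicate 1 (adjusted p from 0.00984 to 0.0319).

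**Figure D2:**
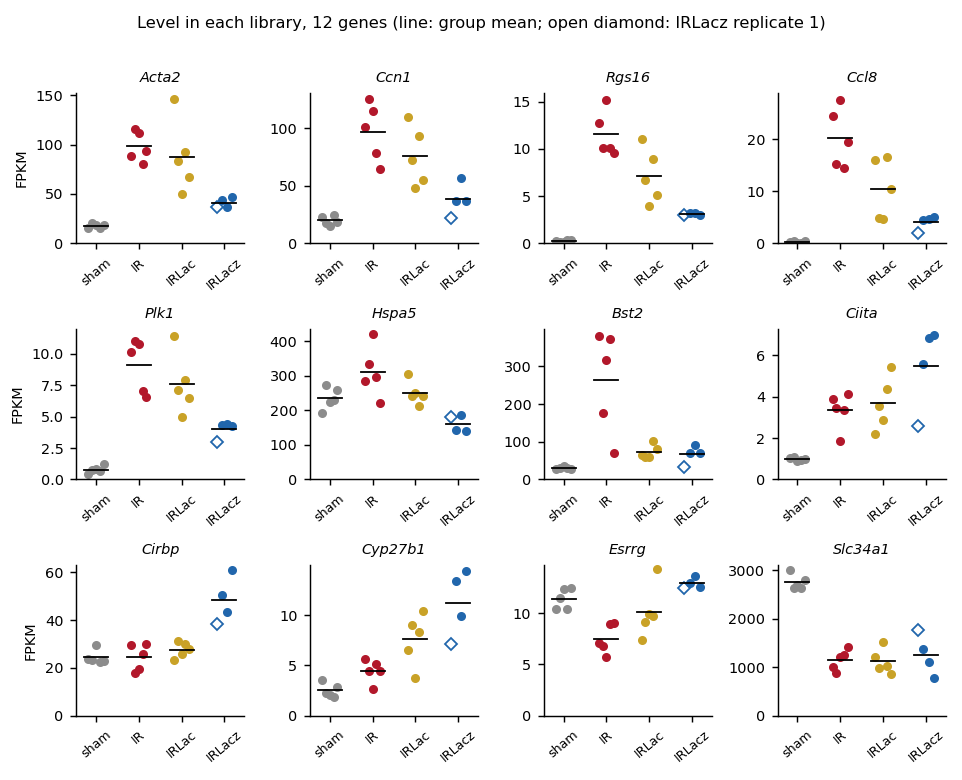
FPKM of 12 genes in every library of the 4 groups, with a line at the group mean and IRLacz replicate 1 as an open diamond. Acta2, Ccn1, Rgs16, Ccl8, Plk1, Cirbp, Cyp27b1 and Esrrg separated the 4 IRLacz from the 5 IR libraries, Bst2 did not, as IR replicate 5 lay within the IRLacz range, and Slc34a1 overlapped.

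Many genes of the extracellular matrix and its producers fell, with the fewest in the basement membrane list. Of 133 tested members of 7 lists, 63 fell and 1 rose (median -0.41). In 63 of the 133 every IRLacz library was below every IR library, against 6.85% of all entries. Without IRLacz replicate 1, 38 fell and 0 rose (median -0.27), while 5 were higher with all libraries at an unadjusted p under 0.05. Of 14 interstitial collagen genes tested, 9 fell, with a median of -0.70, and 6 fell without IRLacz replicate 1 (median -0.57). Of 18 genes of collagen processing and crosslinking tested, 10 fell, with a median of -0.47, and 7 fell without IRLacz replicate 1 (median -0.28). Of 17 contractile genes and PDGF receptors of myofibroblasts tested, 11 fell, with a median of -0.44, and 7 fell without IRLacz replicate 1 (median -0.41). The 11 ranged from 6 to 11 with single libraries left out, and IR replicates 2 and 3 also moved it by over 1.5 times. Of 24 matrix glycoprotein and proteoglycan genes tested, 11 fell, with a median of -0.42, and 7 fell without IRLacz replicate 1 (median -0.28). The 11 ranged from 7 to 14 with single libraries left out, and IR replicates 2 and 3 also moved it by over 1.5 times. The summed FPKM of this list did not fall outside IRLacz replicate 1. It was 4467 in that library, 8967 to 14039 in IRLacz replicates 2 to 4 and 8757 to 11597 in IR. Of 19 genes of matrix proteases, plasminogen activators and their inhibitors tested, 8 fell, with a median of -0.34, and 5 fell without IRLacz replicate 1 (median -0.18). The 8 ranged from 4 to 9 with single libraries left out, and IR replicate 3 also moved it by over 1.5 times. Of 21 genes of TGF-beta, activin and BMP signals tested, 10 fell and 1 rose (Bmp7; 0 to 1 over single libraries left out), with a median of -0.39, and 5 fell without IRLacz replicate 1 (median -0.30). The 10 ranged from 5 to 12 with single libraries left out, and IR replicate 3 also moved it by over 1.5 times. Of 20 basement membrane genes tested, 4 fell (Col4a2, Lama4, Lamb3 and Nid1), with a median of -0.072, and 1 fell without IRLacz replicate 1 (median 0.017). The 4 ranged from 0 to 5 with single libraries left out, and IRLacz replicates 2 and 3 and IR replicates 1, 2 and 3 also moved it by over 1.5 times.

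Among contractile genes, Acta2, the smooth muscle actin that marks myofibroblasts, stood at 37.1, 44.4, 36.4 and 46.95 FPKM in IRLacz and 88.9, 116, 112, 80.8 and 93.8 in IR. The groups were well apart, and all 4 IRLacz libraries were still above the 15.6 to 20.8 of sham (log2 difference -1.23 ± 0.21 SE, adjusted p = 0.00487, and 0.012 without IRLacz replicate 1). Tpm2, a tropomyosin, stood at 14.5, 16.8, 18.4 and 21.3 in IRLacz and 34.05, 34.9, 36.9, 26.2 and 31.9 in IR (log2 difference -0.85, adjusted p = 0.00487). Cnn2, a calponin, stood at 36.6, 50.3, 46.03 and 57.1 in IRLacz and 79.3, 95.5, 83.1, 73.5 and 73.5 in IR (log2 difference -0.77, adjusted p = 0.00487). Neither gene's groups overlapped. Tpm2 and Cnn2 kept their calls without IRLacz replicate 1 (adjusted p from 0.0111 to 0.012).

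Among the collagens, Col3a1 stood at 119.7, 192, 144 and 175 in IRLacz and 249, 287, 314, 293 and 295 in IR, with no overlap (log2 difference -0.88 ± 0.15 SE, adjusted p = 0.00487, and 0.012 without IRLacz replicate 1). Col6a3, a chain of the microfibrillar collagen, stood at 9.71, 15.9, 13.3 and 14.9 in IRLacz and 17.6, 25.3, 22.6, 21.6 and 24 in IR (log2 difference -0.69, adjusted p = 0.00727). Its highest IRLacz library, replicate 2, came close to the lowest IR library. Other members fold and crosslink collagen. Serpinh1, the collagen chaperone HSP47, stood at 105, 151, 157 and 170.2 in IRLacz and 267, 315, 306, 235 and 233 in IR, without overlap (log2 difference -0.90, adjusted p = 0.00487). Adamts2, the procollagen N-propeptidase, stood at 5.06, 6.92, 4.97 and 6.27 in IRLacz and 10.1, 10.2, 10.4, 9.98 and 9.71 in IR (log2 difference -0.71, adjusted p = 0.00487). The 5 IR libraries were within 0.74 FPKM of each other, and every IRLacz library lay below them. Lox, the lysyl oxidase that crosslinks collagen, stood at 7.71, 11.1, 7.96 and 12.3 in IRLacz and 17.2, 17.01, 21, 16.1 and 17.6 in IR (log2 difference -0.82, adjusted p = 0.00727). P4ha1, a collagen prolyl hydroxylase, differed from these in that IR overlapped sham: it stood at 18.1, 15.3, 13.04 and 14.5 in IRLacz, 20.8, 26.1, 25.9, 22.9 and 19.3 in IR and 18.1 to 22.9 in sham (log2 difference -0.56, adjusted p = 0.00613). Replicate 1 was the IRLacz library nearest to IR. Col6a3, Serpinh1, Adamts2, Lox and P4ha1 kept their calls without IRLacz replicate 1 (adjusted p from 0.00899 to 0.0216).

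Of the glycoproteins, Postn, a matricellular protein of healing tissue, stood at 2.95, 4.94, 3.16 and 5.54 in IRLacz and 9.33, 10.2, 13.2, 9.43 and 8.78 in IR (log2 difference -1.14 ± 0.20 SE, adjusted p = 0.00568, and 0.0132 without IRLacz replicate 1). Fn1, fibronectin, stood at 26.97, 41.9, 30.96 and 37.1 in IRLacz and 49.6, 68.9, 68.04, 62.95 and 68.6 in IR (log2 difference -0.88, adjusted p = 0.00643). Both separated the groups, and in both replicates 1 and 3 were the lower IRLacz libraries. Plaur, the urokinase receptor, stood at 9.89, 14.4, 19.8 and 19.2 in IRLacz and 35.8, 36.4, 45.2, 32.95 and 26.9 in IR (log2 difference -1.14, adjusted p = 0.00618). Timp1, an inhibitor of matrix metalloproteinases, stood at 24.2, 45.7, 54.8 and 56.2 in IRLacz and 103, 87.7, 109.8, 78.7 and 87.2 in IR (log2 difference -1.09, adjusted p = 0.0124). Inhbb, a subunit of activin B, stood at 2.94, 4.16, 3.75 and 4.03 in IRLacz and 7.46, 6.7, 6.37, 7.1 and 7.57 in IR (log2 difference -0.77, adjusted p = 0.00637). Again no IRLacz library of these 3 reached an IR library. In the basement membrane list Lama4, a laminin chain of vessels, stood at 2.11, 2.62, 1.85 and 1.84 in IRLacz and 2.78, 3.34, 3.24, 3.31 and 3 in IR, with the groups separate (log2 difference -0.42 ± 0.11 SE, adjusted p = 0.0207, and 0.0417 without IRLacz replicate 1), and its call was lost without IR replicate 2 or 3 (adjusted p up to 0.0561). Fn1, Plaur, Timp1 and Inhbb kept their calls without IRLacz replicate 1 (adjusted p from 0.0166 to 0.0373).

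Immune genes fell too, but more of that fall rested on IRLacz replicate 1. Of 216 tested members of 13 lists, 82 fell and 1 rose (median -0.51). Without that library 25 fell and 3 rose (median -0.30). In bulk kidney RNA, fewer cells of a type and less RNA per cell cannot be told apart. Of 21 macrophage and monocyte markers tested, 12 fell, with a median of -0.75, and 3 fell without IRLacz replicate 1 (median -0.48). The 12 ranged from 2 to 16 with single libraries left out, and IRLacz replicate 2 and IR replicates 2 and 3 also moved it by over 1.5 times. Summed over the list, the macrophage markers came to 1669 to 2324 FPKM in IR and 132 to 172 in sham. They came to 673 in IRLacz replicate 1 and 1098 to 1615 in the other 3 IRLacz libraries, all below IR. Whether they followed the matrix genes from library to library was not tested, nor was their part in the matrix results. Of 14 Fc gamma and C-type lectin receptors tested, 10 fell, with a median of -0.82, and 5 fell without IRLacz replicate 1 (median -0.56). The 10 ranged from 5 to 12 with single libraries left out, and IRLacz replicate 2 and IR replicate 3 also moved it by over 1.5 times. Of 20 lysosome and lipid-associated macrophage genes tested, 8 fell, with a median of -0.38, and 2 fell without IRLacz replicate 1 (median -0.26). The 8 ranged from 2 to 10 with single libraries left out, and IRLacz replicate 2 and IR replicates 1, 2 and 3 also moved it by over 1.5 times. Of 13 CC chemokines and receptors tested, 9 fell, with a median of -0.84, and 5 fell without IRLacz replicate 1 (median -0.80). The 9 ranged from 5 to 8 with single libraries left out, and IRLacz replicate 2 and IR replicates 1, 2 and 3 also moved it by over 1.5 times. Of 31 mediators of IL-1, IL-6, TNF and NF-kappaB tested, 10 fell and 1 rose (Lifr; 1 to 1 over single libraries left out), with a median of -0.40, and 5 fell and 1 rose without IRLacz replicate 1 (median -0.23). The 10 ranged from 5 to 13 with single libraries left out, and IRLacz replicate 2 and IR replicates 1, 2 and 3 also moved it by over 1.5 times.

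Ccl8, a chemokine that draws monocytes through Ccr receptors, stood at 1.93, 4.55, 4.75 and 4.99 FPKM in IRLacz and 24.5, 15.3, 27.6, 14.6 and 19.4 in IR. All 4 IRLacz libraries were far below every IR library (log2 difference -2.09 ± 0.32 SE, adjusted p = 0.00389, and 0.00948 without IRLacz replicate 1). Ccl12 stood at 3.15, 4.32, 12.7 and 9.96 in IRLacz and 20.3, 22.5, 25.6, 21.6 and 13.9 in IR (log2 difference -1.49 ± 0.31 SE, adjusted p = 0.00877, and 0.0253 without IRLacz replicate 1). IRLacz replicate 3 and IR replicate 5 came close without overlapping. Ccl2, the main monocyte attractant, stood at 9.64, 33.8, 36.7 and 30.4 in IRLacz and 62.8, 66.7, 52.5, 44.2 and 47.7 in IR. Its groups did not overlap, yet the test was missed (log2 difference -1.10 ± 0.36 SE, adjusted p = 0.0518, and 0.178 without IRLacz replicate 1); without IRLacz replicate 3 it was passed (adjusted p = 0.0425).

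Fcgr1, the high-affinity receptor for IgG, stood at 2.45, 6.28, 8.48 and 7.54 in IRLacz and 17.5, 13.4, 21.6, 18.9 and 9.08 in IR (log2 difference -1.30 ± 0.27 SE, adjusted p = 0.00841, and 0.0195 without IRLacz replicate 1). C5ar1, the receptor of the complement fragment C5a, stood at 1.96, 2.44, 3.05 and 4.55 in IRLacz and 6.44, 8.31, 9.07, 5.73 and 7.35 in IR (log2 difference -1.09, adjusted p = 0.00663). Both separated the groups and kept their call without each of the 9 libraries. Ms4a7 stood at 5.09, 9.58, 7.19 and 14.2 in IRLacz and 22.5, 16.98, 21.5, 17.4 and 15.5 in IR (log2 difference -1.05, adjusted p = 0.0107). The scavenger receptor Msr1 stood at 1.54, 2.23, 2.08 and 4.31 in IRLacz and 5.89, 6.33, 9.87, 6.31 and 5.34 in IR (log2 difference -1.16, adjusted p = 0.0112). By contrast Adgre1, which encodes F4/80 of resident and infiltrating macrophages, stood at 6.88, 11.8, 13.3 and 17.99 in IRLacz and 18.9, 21.1, 22.1, 20.4 and 18.3 in IR (log2 difference -0.72 ± 0.20 SE, adjusted p = 0.0295, and 0.0962 without IRLacz replicate 1). IRLacz replicate 4 came just under the lowest IR library, and the call was lost without IRLacz replicate 1 or 2 or IR replicate 2 or 3 (adjusted p up to 0.0962). Cd68, a lysosomal protein of macrophages, stood at 8.41, 18.4, 18.6 and 25.8 in IRLacz and 36.5, 32.8, 54.4, 33.5 and 33.6 in IR (log2 difference -1.13 ± 0.27 SE, adjusted p = 0.0154, and 0.0451 without IRLacz replicate 1), and its call was lost without IR replicate 3 (adjusted p up to 0.0502). Gpnmb, a glycoprotein of lipid-laden macrophages, stood at 0.75, 2.39, 1.78 and 5.08 in IRLacz and 8.78, 8.7, 28.6, 14.4 and 12.1 in IR (log2 difference -2.16 ± 0.57 SE, adjusted p = 0.0211, and 0.0625 without IRLacz replicate 1). IR replicate 3 was far above the rest, and the call was lost without IRLacz replicate 1 or 2 or IR replicate 3 (adjusted p up to 0.0652). C5ar1, Ms4a7 and Msr1 kept their calls without IRLacz replicate 1 (adjusted p from 0.0201 to 0.0346).

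Inflammatory mediators were mixed in size. Bcl3, an atypical IkappaB protein, stood at 12.9, 22.9, 30.7 and 23.9 in IRLacz and 53.6, 52.1, 49.9, 44.01 and 37.8 in IR, without overlap (log2 difference -1.09 ± 0.19 SE, adjusted p = 0.00578, and 0.0107 without IRLacz replicate 1). Il6 was low throughout, at 0.06, 0.39, 0.13 and 0.32 in IRLacz and 1.02, 0.96, 1.92, 1.29 and 0.63 in IR (log2 difference -0.80, adjusted p = 0.0104). Il1b stood at 1.7, 2.43, 2.45 and 2.21 in IRLacz and 4.12, 4.12, 3.39, 3.94 and 3.05 in IR (log2 difference -0.56 ± 0.18 SE, adjusted p = 0.0415, and 0.113 without IRLacz replicate 1); the call was lost without IRLacz replicate 1, 2, 3 or 4 or IR replicate 1, 2, 3 or 4 (adjusted p up to 0.113). Tnf stood at 0.34, 0.77, 1.32 and 0.64 in IRLacz and 1.56, 1.02, 0.84, 0.94 and 1.34 in IR, with overlap (log2 difference -0.29 ± 0.14 SE, adjusted p = 0.173, and 0.462 without IRLacz replicate 1), and passed the test without IRLacz replicate 3 (adjusted p = 0.048). Lifr, the receptor of leukemia inhibitory factor, was the member of this list that rose: it stood at 13.8, 13.5, 11.99 and 12.9 in IRLacz, 8.75, 9.59, 8.41, 10.9 and 9.94 in IR and 12.4 to 14.8 in sham (log2 difference 0.42, adjusted p = 0.00843). Il6 and Lifr kept their calls without IRLacz replicate 1 (adjusted p from 0.0219 to 0.0289).

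Few MHC class II genes passed the test. Beside the counts of the lists below, 7.92% of all entries fell and 5.39% rose. Without IRLacz replicate 1 these shares were 3.46% and 4.83%. Of 9 MHC class II presentation genes tested, 1 fell (Cd86), with a median of 0.13, and 0 fell and 1 rose without IRLacz replicate 1 (median 0.43). The count of 1 ranged from 0 to 1 with single libraries left out, and IRLacz replicates 2 and 4 and IR replicates 1, 2, 3, 4 and 5 also moved it by over 1.5 times. Ciita, the transactivator that switches these genes on, stood at 2.58, 5.57, 6.82 and 6.98 in IRLacz and 3.91, 3.44, 1.86, 3.35 and 4.12 in IR. IRLacz replicates 2, 3 and 4 lay above every IR library and replicate 1 within them (log2 difference 0.54 ± 0.23 SE, adjusted p = 0.113, and 0.0218 without IRLacz replicate 1; the log2 difference was 0.81 without that library). H2-Eb1, a class II chain, stood at 129, 279.9, 310.4 and 321 in IRLacz and 279.9, 182, 107, 184 and 243 in IR, with overlap (log2 difference 0.37 ± 0.32 SE, adjusted p = 0.45, and 0.165 without IRLacz replicate 1). The T and NK cell list summed to 37.3 to 84.7 FPKM in IR, 22.5 in IRLacz replicate 1 and 56.45 to 74.7 in IRLacz replicates 2 to 4. Of its 15 tested members 1 rose, Cd2, which was listed at 0 in 4 of 5 IR libraries and in IRLacz replicate 1. The call was lost without IRLacz replicate 2, 3 or 4 or IR replicate 1, 3, 4 or 5 (adjusted p up to 0.125). Neutrophil markers summed to 14.2 to 20.8 in IR, 10.2 in IRLacz replicate 1 and 16.2 to 34.8 in IRLacz replicates 2 to 4, with Elane at 0 in all 9 libraries. Of 19 endothelial genes tested, 3 fell (Eng, Esm1 and Robo4), with a median of -0.069, and 3 fell without IRLacz replicate 1 (median -0.04). For Esm1 the call was lost without IRLacz replicate 2, 3 or 4 or IR replicate 1, 2, 3, 4 or 5 (adjusted p up to 0.123). Of 15 podocyte genes tested, 4 rose (among them Podxl, Magi2 and Clic5) and 4 fell (among them Nes, Actn4 and Kirrel; 1 to 4 over single libraries left out), with a median of 0.029, and 4 rose and 2 fell without IRLacz replicate 1 (median 0.13). The 4 ranged from 1 to 5 with single libraries left out, and IRLacz replicate 2 and IR replicates 1 and 3 also moved it by over 1.5 times. Podxl, a surface sialomucin of podocytes, stood at 42.03, 42.7, 45.1 and 45.9 in IRLacz and 33.1, 37.2, 28.7, 38.3 and 37.3 in IR (log2 difference 0.33, adjusted p = 0.0168), whereas Nes, an intermediate filament protein also made by activated stromal cells, stood at 11.1, 14.3, 16.1 and 15.4 in IRLacz and 22.2, 24.9, 25.7, 20.3 and 21.4 in IR (log2 difference -0.66, adjusted p = 0.00909). Podxl and Nes kept their calls without IRLacz replicate 1 (adjusted p from 0.0262 to 0.0267).

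Interferon-stimulated genes had the lowest median of the 56 lists with at least 5 tested members, and their call depended on which IR libraries were compared. Of 31 interferon-stimulated genes tested, 22 fell, with a median of -1.16, and 3 fell without IRLacz replicate 1 (median -0.92). The 22 ranged from 2 to 31 with single libraries left out, and IRLacz replicates 2 and 4 and IR replicates 1, 3 and 4 also moved it by over 1.5 times. In 0 of the 31 was every IRLacz library below every IR library, although 22 fell by the limma test. Bst2, which tethers budding virus to the cell, stood at 34.2, 70.1, 92.2 and 70.5 FPKM in IRLacz and 381, 177, 315, 373 and 70.1 in IR. IR replicate 5 lay inside the IRLacz range, and the other 4 IR libraries lay well above it (log2 difference -1.81 ± 0.38 SE, adjusted p = 0.00874, and 0.0258 without IRLacz replicate 1). Oas3, a sensor of double-stranded RNA, stood at 0.18, 0.69, 1.31 and 0.64 in IRLacz and 5.02, 2.42, 4.44, 5.84 and 0.61 in IR, with the same library low (log2 difference -1.32 ± 0.31 SE, adjusted p = 0.0128, and 0.0394 without IRLacz replicate 1). Without IR replicate 5, 31 of 31 fell. B2m, the light chain of MHC class I, stood at 467, 812, 945 and 868 in IRLacz and 1671, 1316, 1263, 1355 and 778 in IR (log2 difference -0.73 ± 0.22 SE, adjusted p = 0.0359, and 0.121 without IRLacz replicate 1), and its call was lost without IRLacz replicate 1 or 2 or IR replicate 1, 2, 3 or 4 (adjusted p up to 0.121). The guanosine triphosphatase Irgm1 stood at 20.7, 38.04, 56.3 and 35.7 in IRLacz and 105, 60.4, 92.9, 126 and 31.8 in IR (log2 difference -1.06 ± 0.31 SE, adjusted p = 0.0317, and 0.105 without IRLacz replicate 1), and its call was lost without IRLacz replicate 1 or 2 or IR replicate 1, 3 or 4 (adjusted p up to 0.105). Against the other gavaged group the interferon list had a median of 0.10, and Bst2 stood at 58.5 to 101 FPKM there.

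**Figure D3:**
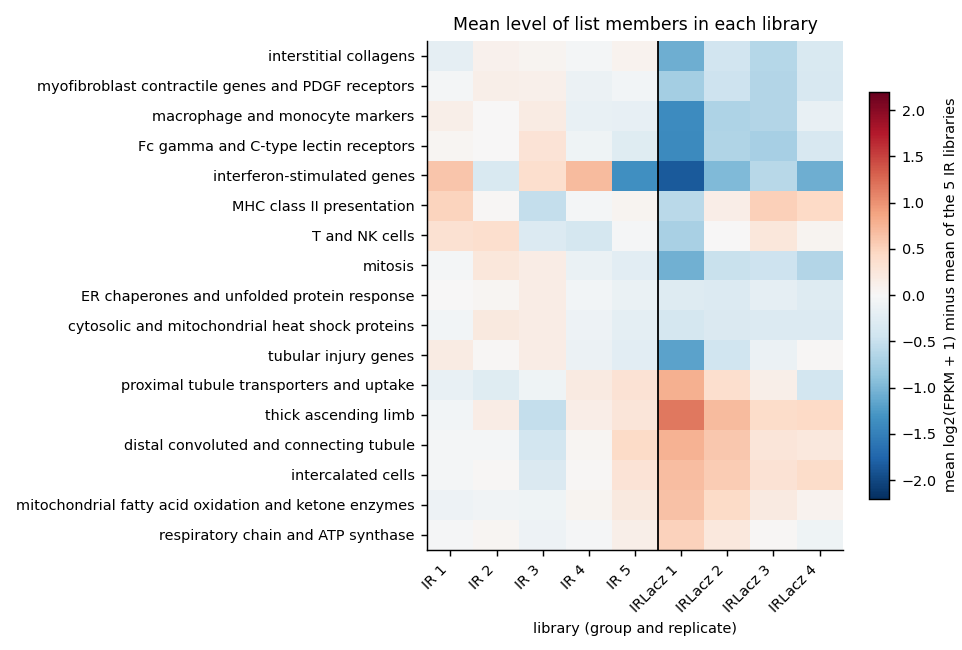
Mean log2(FPKM + 1) of the members of 17 lists in each of the 9 libraries, minus the mean over the 5 IR libraries (red higher, blue lower). IRLacz replicate 1 was the farthest from IR for the collagen, myofibroblast, macrophage, mitosis and injury lists and the 4 tubule segment lists plotted, IR replicate 5 was low for interferon-stimulated genes, and the chaperone lists were lower by a like amount in all 4 IRLacz libraries.

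Cell cycle genes fell, and most of all those of mitosis. Of 116 tested members of 4 lists, 54 fell and 1 rose (median -0.43), and 26 fell and 2 rose without IRLacz replicate 1. Of 42 mitosis genes tested, 33 fell, with a median of -0.65, and 17 fell without IRLacz replicate 1 (median -0.53). The 33 ranged from 17 to 36 with single libraries left out, and IR replicates 2 and 3 also moved it by over 1.5 times. Of 34 DNA replication genes tested, 8 fell, with a median of -0.31, and 2 fell without IRLacz replicate 1 (median -0.19). The 8 ranged from 1 to 10 with single libraries left out, and IRLacz replicate 2 and IR replicates 1, 2 and 3 also moved it by over 1.5 times. Of 22 G1 cyclins, E2F factors and cell cycle inhibitors tested, 7 fell and 1 rose (Rb1; 1 to 2 over single libraries left out), with a median of -0.28, and 5 fell and 2 rose without IRLacz replicate 1 (median -0.25). The 7 ranged from 4 to 8 with single libraries left out, and IRLacz replicate 2 and IR replicates 1, 2 and 3 also moved it by over 1.5 times. Of 18 p53 targets tested, 6 fell, with a median of -0.29, and 2 fell without IRLacz replicate 1 (median -0.16). The 6 ranged from 2 to 6 with single libraries left out, and IR replicates 2 and 3 also moved it by over 1.5 times. Plk1, a kinase that drives entry into mitosis, stood at 2.99, 4.35, 4.38 and 4.24 FPKM in IRLacz, 10.2, 11.03, 10.8, 7.06 and 6.61 in IR and 0.46 to 1.2 in sham. The IRLacz libraries lay between sham and IR (log2 difference -1.0 ± 0.19 SE, adjusted p = 0.00613, and 0.0158 without IRLacz replicate 1). Ube2c, which loads ubiquitin for the anaphase-promoting complex, stood at 6.86, 11.1, 14.1 and 9.36 in IRLacz and 26.6, 32.96, 33.6, 19.1 and 19.3 in IR (log2 difference -1.27, adjusted p = 0.00663). Foxm1, the transcription factor of the mitotic program, stood at 1.39, 2.5, 2.64 and 2.03 in IRLacz and 4.11, 4.6, 4.86, 4.05 and 3.71 in IR (log2 difference -0.76, adjusted p = 0.00618). Neither overlapped. Rb1, which restrains entry into S phase, was the cell cycle gene that rose: it stood at 9.09, 8.14, 8.55 and 9.27 in IRLacz and 6.23, 6.93, 5.44, 6.96 and 6.96 in IR, again without overlap, while sham was at 5.24 to 6.31 (log2 difference 0.38, adjusted p = 0.0126). Gdf15, a stress-induced cytokine and p53 target, stood at 41.7, 47.4, 66.95 and 68.5 in IRLacz and 108, 152, 144, 94.9 and 85.02 in IR (log2 difference -1.04 ± 0.27 SE, adjusted p = 0.0188, and 0.0557 without IRLacz replicate 1), and its call was lost without IRLacz replicate 1 or 2 or IR replicate 2 or 3 (adjusted p up to 0.0595). Ube2c, Foxm1 and Rb1 kept their calls without IRLacz replicate 1 (adjusted p from 0.0166 to 0.0316).

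Chaperones of the endoplasmic reticulum (ER) fell, and few of their calls rested on IRLacz replicate 1. Of 65 tested members of 3 proteostasis lists, 26 fell and 0 rose by limma (1 at an unadjusted p under 0.05). Of 33 genes of ER chaperones and the unfolded protein response tested, 16 fell, with a median of -0.24, and 15 fell without IRLacz replicate 1 (median -0.22). The 16 ranged from 9 to 18 with single libraries left out, and IRLacz replicate 2 and IR replicate 3 also moved it by over 1.5 times. In this list 13 members fell both with and without it. These proteins fold secreted cargo, collagens included, and are induced by the unfolded protein response through an ER stress response element in their promoters. Of the 28 listed genes that the RefSeq promoter table holds (GRCm38.p6, 250 bases before to 50 after the start), 10 carried the letters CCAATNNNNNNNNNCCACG on either strand, or 35.7%, against 0.137% of the 27025 genes in the table. Of the 13 members that fell and are in the table, 6 carried it. A match describes the letters only. The 250 bases before the start are shown for 3 of the members that fell, with the element in capitals, because these 3 genes carry the chaperone result below; the element reads on the gene's own strand in Hspa5 and Pdia6 and on the opposite strand in Creld2. They lie at chr2:34771840-34772089 for Hspa5, chr15:88819396-88819645 for Creld2 and chr12:17266339-17266588 for Pdia6, all on the plus strand.
Hspa5: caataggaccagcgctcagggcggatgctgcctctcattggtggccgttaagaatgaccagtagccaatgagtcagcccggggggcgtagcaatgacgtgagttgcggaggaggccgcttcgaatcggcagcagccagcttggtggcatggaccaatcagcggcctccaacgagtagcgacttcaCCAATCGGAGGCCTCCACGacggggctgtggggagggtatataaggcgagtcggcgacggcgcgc
Creld2: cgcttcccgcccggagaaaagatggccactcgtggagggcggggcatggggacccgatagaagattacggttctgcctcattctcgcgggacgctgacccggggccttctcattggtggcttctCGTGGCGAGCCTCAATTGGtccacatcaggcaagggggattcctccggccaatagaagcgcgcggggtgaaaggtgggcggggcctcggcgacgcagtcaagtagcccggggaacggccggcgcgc
Pdia6: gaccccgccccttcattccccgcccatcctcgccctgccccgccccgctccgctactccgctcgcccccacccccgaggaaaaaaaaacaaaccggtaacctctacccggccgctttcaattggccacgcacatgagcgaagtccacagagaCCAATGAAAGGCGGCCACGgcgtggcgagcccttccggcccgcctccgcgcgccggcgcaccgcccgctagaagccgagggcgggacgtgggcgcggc

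Hspa5, the ER chaperone BiP, stood at 179.6, 142, 186 and 139.9 FPKM in IRLacz, 286, 334, 422, 298 and 219.9 in IR and 192 to 273 in sham. Each IRLacz library was below each IR library, and below each sham library as well (log2 difference -0.92 ± 0.15 SE, adjusted p = 0.00487, and 0.00899 without IRLacz replicate 1). Creld2, an ER protein disulfide isomerase, stood at 21.3, 21.9, 21.6 and 22.1 in IRLacz, 38.99, 42.9, 59.5, 35.1 and 28.8 in IR and 27.1 to 39.2 in sham. The 4 IRLacz libraries lay within 0.76 FPKM of each other and under all IR and sham libraries (log2 difference -0.85, adjusted p = 0.00578). Pdia6, another disulfide isomerase, stood at 125, 124, 145 and 132 in IRLacz, 178, 182, 197, 161 and 161 in IR and 106 to 120.3 in sham (log2 difference -0.41, adjusted p = 0.00583). Here IRLacz lay between sham and IR. Sdf2l1, a cofactor of BiP, stood at 18.6, 19.9, 21.1 and 21.8 in IRLacz and 38.4, 41.1, 48.95, 30.8 and 27.2 in IR (log2 difference -0.82, adjusted p = 0.00599). Of the 16 list members that fell, 5 lay below every sham library in all IRLacz libraries. The list's median log2 difference, IR minus sham, was only 0.23. The share of all entries that lay below sham was not counted, so the 5 describe these members only. It differed widely between lists: all IRLacz libraries lay below every sham library for 24 of 32 proximal tubule enzymes and for 0 of 14 interstitial collagens. Creld2, Pdia6 and Sdf2l1 kept their calls without IRLacz replicate 1 (adjusted p from 0.0122 to 0.0143).

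Cytosolic heat shock proteins fell as well. Of 16 cytosolic and mitochondrial heat shock genes tested, 8 fell, with a median of -0.32, and 5 fell without IRLacz replicate 1 (median -0.24). The 8 ranged from 2 to 8 with single libraries left out, and IRLacz replicate 2 and IR replicates 2 and 3 also moved it by over 1.5 times. Hspa8, the constitutive HSC70, stood at 772, 823, 1037 and 903 FPKM in IRLacz, 1391, 1661, 1905, 1445 and 1056 in IR and 1265 to 1704 in sham (log2 difference -0.74 ± 0.16 SE, adjusted p = 0.0088, and 0.0239 without IRLacz replicate 1). Dnaja1, an HSP40 cochaperone, stood at 66.9, 58.2, 59.4 and 51.4 in IRLacz, 78.1, 97.5, 107, 83.9 and 65.7 in IR and 83.7 to 128 in sham (log2 difference -0.53 ± 0.13 SE, adjusted p = 0.0158, and 0.0201 without IRLacz replicate 1). For both genes every IRLacz library lay below every sham library; for Dnaja1 the highest IRLacz library, replicate 1, lay above the lowest IR library, and its call was lost without IR replicate 3 (adjusted p up to 0.0507). Hsf1, the transcription factor of the heat shock response, stood at 17.5, 19.4, 18.5 and 19.8 in IRLacz and 22.6, 29.3, 28.7, 21.9 and 22.1 in IR (log2 difference -0.38 ± 0.08 SE, adjusted p = 0.00996, and 0.0267 without IRLacz replicate 1). Of the 8 members that fell, 4 lay below every sham library in all IRLacz libraries. Here the median log2 difference, IR minus sham, was 0.18, and again the share of all entries below sham was not counted.

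**Figure D4:**
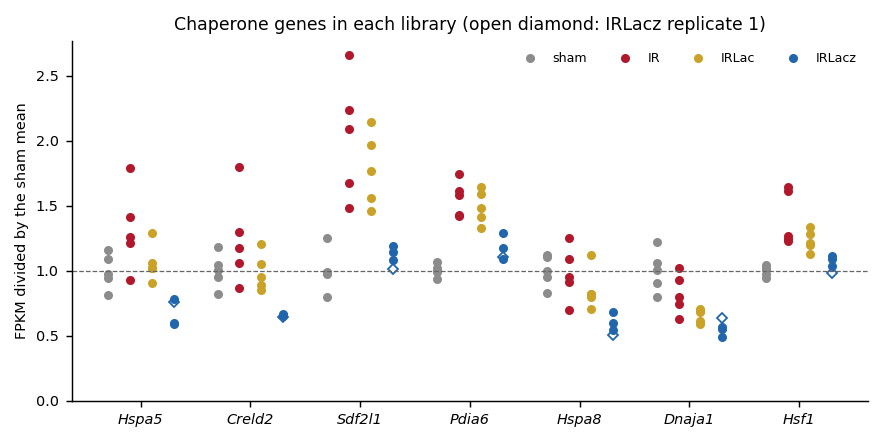
FPKM of 6 chaperone or foldase genes and the regulator Hsf1 in every library, divided by the sham mean of the gene (dashed line at 1), with IRLacz replicate 1 as an open diamond. Hspa5, Creld2, Hspa8 and Dnaja1 lay below sham in all 4 IRLacz libraries, and Sdf2l1, Pdia6 and Hsf1 lay near or above it.

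The other motif counts were made the same way. The interferon-stimulated response element GAAANNGAAA was in the promoters of 12 of 22 listed interferon-stimulated genes (54.5%) against 3.99% of all genes, and the cell cycle genes homology region TTTGAA in 26 of 35 listed mitosis genes (74.3%) against 20.2%. Among members that fell it was 9 of 17 for the interferon list and 22 of 27 for the mitosis list. One example of each is shown with its element in capitals, Oas3 at chr5:120777660-120777909 on the minus strand of the chromosome and Ube2c at chr2:164769679-164769928 on the plus strand, where the element is on the strand opposite to the gene.
Oas3: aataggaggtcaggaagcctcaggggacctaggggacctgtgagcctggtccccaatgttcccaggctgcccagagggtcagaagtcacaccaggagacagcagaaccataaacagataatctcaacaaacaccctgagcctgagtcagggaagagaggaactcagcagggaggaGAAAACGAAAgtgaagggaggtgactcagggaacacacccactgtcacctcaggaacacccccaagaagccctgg
Ube2c: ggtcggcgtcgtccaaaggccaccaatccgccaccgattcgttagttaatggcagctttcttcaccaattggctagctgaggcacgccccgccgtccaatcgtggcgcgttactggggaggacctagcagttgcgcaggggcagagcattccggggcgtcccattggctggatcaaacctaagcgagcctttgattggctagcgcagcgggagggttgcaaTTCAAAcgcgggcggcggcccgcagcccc

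Tubular injury genes were spread widely among the IRLacz libraries. Of 37 tubular injury genes tested, 10 fell, with a median of -0.45, and 4 fell without IRLacz replicate 1 (median -0.21). The 10 ranged from 4 to 18 with single libraries left out, and IRLacz replicates 2 and 4 and IR replicates 1, 2 and 3 also moved it by over 1.5 times. Havcr1, which encodes KIM-1 and is induced in injured proximal tubules, stood at 138, 305, 495 and 553 FPKM in IRLacz and 542, 503, 517, 474 and 403 in IR. Replicate 1 was far below the IR range and replicates 3 and 4 were inside or above it (log2 difference -0.56 ± 0.33 SE, adjusted p = 0.254, and 0.759 without IRLacz replicate 1). Lcn2, which encodes NGAL, stood at 108, 250.5, 254 and 418 in IRLacz and 503, 361, 489.9, 313 and 266 in IR, also with overlap (log2 difference -0.69 ± 0.32 SE, adjusted p = 0.149, and 0.474 without IRLacz replicate 1), and passed the test without IRLacz replicate 4 (adjusted p = 0.0416). Other members did separate. Hbegf, a ligand of the EGF receptor, stood at 11.7, 12.02, 13.6 and 12.9 in IRLacz and 24.5, 20.9, 25.1, 20.4 and 16.8 in IR (log2 difference -0.72, adjusted p = 0.00487). Tm4sf1, a tetraspan membrane protein, stood at 29.5, 26.4, 28.4 and 27.2 in IRLacz and 37.8, 40.6, 37.7, 37.9 and 35.6 in IR (log2 difference -0.43, adjusted p = 0.00578). In both the 4 IRLacz libraries, replicate 1 included, were close together and below IR. Hbegf and Tm4sf1 kept their calls without IRLacz replicate 1 (adjusted p from 0.00984 to 0.0109).

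Few proximal tubule genes passed the test. Of 34 proximal tubule transporters and uptake receptors tested, 2 rose (Slc7a9 and Slc9a3) and 1 fell (Amn; 0 to 1 over single libraries left out), with a median of 0.14, and 0 rose without IRLacz replicate 1 (median -0.004). The 2 ranged from 0 to 5 with single libraries left out, and IRLacz replicates 2, 3 and 4 and IR replicates 1, 2 and 3 also moved it by over 1.5 times. Slc34a1, the main phosphate transporter, stood at 1761, 1376, 1109 and 767 in IRLacz, 1011, 885, 1209, 1258 and 1408 in IR and 2634 to 2997 in sham. IRLacz replicate 4 was the lowest of the 9 libraries and replicate 1 the highest (log2 difference 0.07 ± 0.20 SE, adjusted p = 0.828, and 0.74 without IRLacz replicate 1), and the 95% interval of the log2 difference ran from -0.34 to 0.49. Of 32 proximal tubule enzymes tested, 2 rose (Cyp27b1 and Agxt2), with a median of 0.30, and 1 rose without IRLacz replicate 1 (median 0.17). The 2 ranged from 1 to 5 with single libraries left out, and IRLacz replicates 2, 3 and 4 and IR replicates 1, 2, 3, 4 and 5 also moved it by over 1.5 times. Cyp27b1, described above, is the member of that list that rose with and without replicate 1. Slc9a3, the apical sodium-proton exchanger, stood at 28.3, 19.8, 19.7 and 17.2 in IRLacz and 10.2, 10.9, 10.01, 15.4 and 15.5 in IR (log2 difference 0.73 ± 0.19 SE, adjusted p = 0.0201, and 0.0644 without IRLacz replicate 1). Its groups were separate, but the call was lost without IRLacz replicate 1 or IR replicate 2 or 3 (adjusted p up to 0.0644). Summed over the enzyme list, replicate 1 held 34881 FPKM against 9372 to 23947 in the other IRLacz libraries, 9489 to 19500.1 in IR and 47492 to 52651 in sham.

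Of 188 tested members of the 8 tubule lists, injury genes included, 26 rose (13.8%, against 5.39% of all entries) and 11 fell. Without IRLacz replicate 1, 10 rose (5.32%, near the 4.83% of all entries) and 4 fell. Of the 37 injury genes 0 rose in either fit, so the share of the segment lists taken alone was higher than these. Of 20 intercalated cell genes tested, 9 rose, with a median of 0.53, and 5 rose without IRLacz replicate 1 (median 0.45). The 9 ranged from 3 to 13 with single libraries left out, and IRLacz replicate 2 and IR replicates 1, 2 and 3 also moved it by over 1.5 times. Of 17 principal cell genes of the collecting duct tested, 5 rose (Aqp3, Scnn1b, Scnn1g, Nr3c2 and Tfcp2l1), with a median of 0.52, and 2 rose without IRLacz replicate 1 (median 0.47). The 5 ranged from 0 to 9 with single libraries left out, and IRLacz replicates 2, 3 and 4 and IR replicates 1, 2 and 3 also moved it by over 1.5 times. Of 19 thick ascending limb genes tested, 3 rose (among them Casr and Cyfip2), with a median of 0.58, and 1 rose without IRLacz replicate 1 (median 0.48). The 3 ranged from 0 to 5 with single libraries left out, and IRLacz replicates 2 and 4 and IR replicates 1, 2 and 3 also moved it by over 1.5 times. Of 22 distal convoluted and connecting tubule genes tested, 4 rose (Slc12a3, Cnnm2, Klhl3 and Emx1), with a median of 0.32, and 1 rose without IRLacz replicate 1 (median 0.30). The 4 ranged from 1 to 6 with single libraries left out, and IRLacz replicate 2 and IR replicates 1, 2 and 3 also moved it by over 1.5 times. Slc4a9, an anion exchanger of intercalated cells, stood at 27.3, 30.2, 26.5 and 29.7 FPKM in IRLacz, 20.3, 18.4, 17.8, 19 and 24.4 in IR and 27.6 to 33.2 in sham (log2 difference 0.50 ± 0.11 SE, adjusted p = 0.00954, and 0.0178 without IRLacz replicate 1). Atp6v0d2, a subunit of the proton pump, stood at 14.8, 15.4, 13.8 and 17.8 in IRLacz and 11.97, 10.8, 8.57, 9.41 and 11.04 in IR (log2 difference 0.54, adjusted p = 0.0118). Oxgr1, a receptor of the citrate cycle acid oxoglutarate in these cells, stood at 5.77, 5.79, 4.01 and 3.96 in IRLacz, 2.46, 2.29, 1.95, 2.6 and 3.58 in IR and 7.51 to 11.4 in sham (log2 difference 0.72, adjusted p = 0.0106). All 3 separated the groups, and replicate 1 was the IRLacz library farthest from IR in none of them. Tfcp2l1, a transcription factor of the collecting duct, stood at 36.8, 36.6, 42.6 and 43.1 in IRLacz and 32.1, 30.6, 28.5, 32.5 and 32.2 in IR (log2 difference 0.34 ± 0.08 SE, adjusted p = 0.0163, and 0.0216 without IRLacz replicate 1), and its call was lost without IR replicate 3 (adjusted p up to 0.0526). Klhl3, an adaptor that marks WNK kinases for degradation in the distal convoluted tubule, stood at 10.7, 9.32, 6.07 and 6.04 in IRLacz and 3.93, 3.84, 2.65, 4.45 and 6.32 in IR, where IR replicate 5 overlapped (log2 difference 0.79, adjusted p = 0.0135). Umod, the most abundant of these, stood at 2342, 1761, 1533 and 1470.1 in IRLacz and 1092, 1344, 842, 1326 and 1364 in IR; the IRLacz libraries were all higher, but the test was missed (log2 difference 0.57 ± 0.28 SE, adjusted p = 0.172, and 0.372 without IRLacz replicate 1). Urothelial genes, those of the lining of the renal pelvis and ureter, summed to 9.31 to 28.9 FPKM in IR and 9.06 to 63.1 in IRLacz. Of 7 urothelial genes tested, 1 rose (Upk2), with a median of 0.66, and 0 rose without IRLacz replicate 1 (median 0.68). The count of 1 ranged from 0 to 5 with single libraries left out, and IRLacz replicates 2, 3 and 4 and IR replicates 3, 4 and 5 also moved it by over 1.5 times. Psca stood at 23.4, 29.2, 3.16 and 29.9 in IRLacz and 8.96, 5.73, 5.83, 5.03 and 2.59 in IR, high in 3 of 4 IRLacz libraries and not in replicate 3 (log2 difference 1.48 ± 0.60 SE, adjusted p = 0.105, and 0.21 without IRLacz replicate 1), without which it passed the test (adjusted p = 0.0189). Atp6v0d2, Oxgr1 and Klhl3 kept their calls without IRLacz replicate 1 (adjusted p from 0.0229 to 0.0427).

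**Figure D5:**
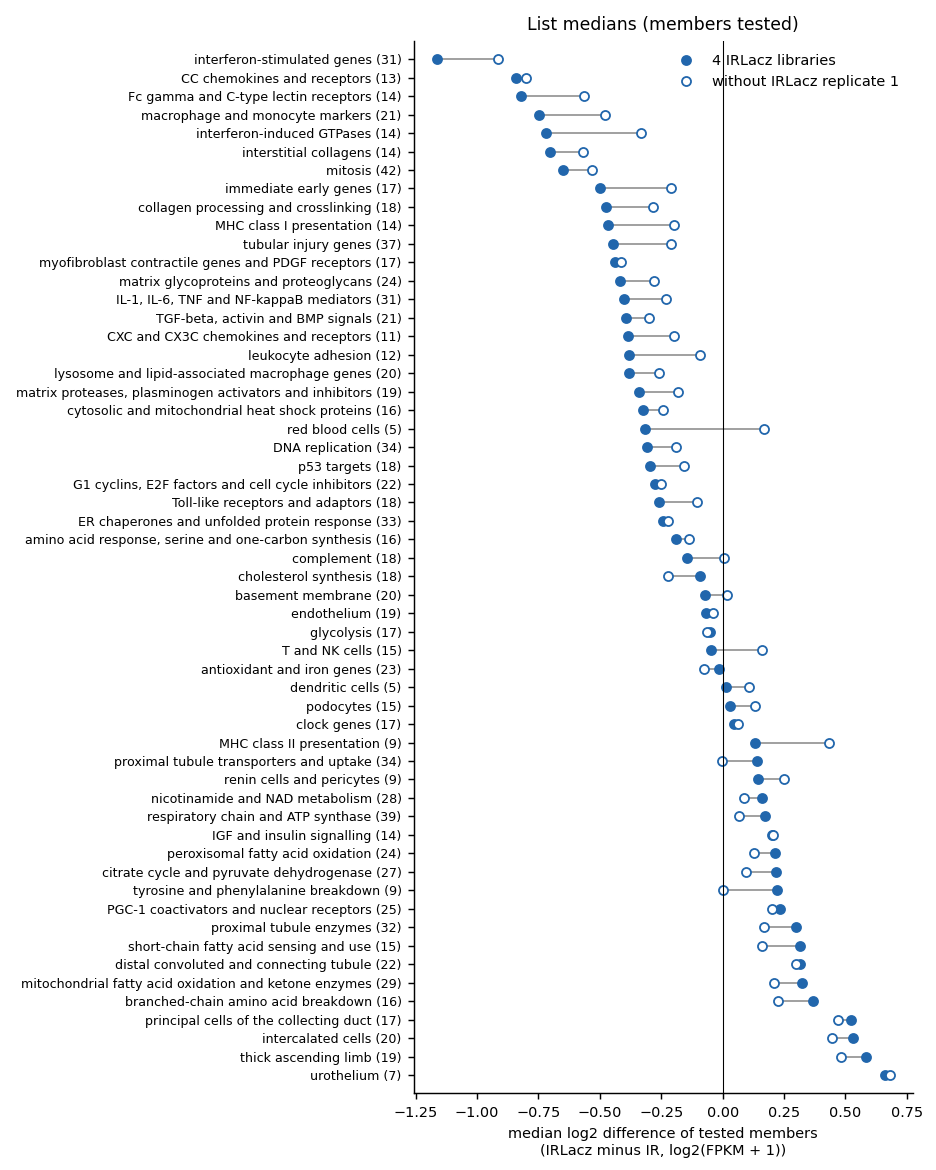
Median log2 difference, IRLacz minus IR, over the tested members of each list with at least 5 (the number tested in brackets), with 4 IRLacz libraries (filled) and without IRLacz replicate 1 (open). Red blood cell, T and NK cell, complement, basement membrane, proximal transporter and tyrosine breakdown lists changed sign without that library.

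A minority of metabolic genes passed the test. Of 284 tested members of 13 lists, 33 rose (11.6%, against 5.39% of all entries) and 14 fell, with a median of 0.19. 14 rose without IRLacz replicate 1 (4.93%, near the 4.83% of all entries) and 11 fell, with a median of 0.092. Of 29 enzymes of mitochondrial fatty acid oxidation and ketone use tested, 7 rose, with a median of 0.32, and 1 rose without IRLacz replicate 1 (median 0.21). The 7 ranged from 1 to 14 with single libraries left out, and IRLacz replicates 2 and 4 and IR replicates 1, 2 and 3 also moved it by over 1.5 times. Of 25 PGC-1 coactivators and nuclear receptors tested, 5 rose (among them Ppargc1a, Esrrb, Esrrg and Tfam), with a median of 0.23, and 3 rose without IRLacz replicate 1 (median 0.20). The 5 ranged from 2 to 8 with single libraries left out, and IRLacz replicates 2 and 4 and IR replicates 2 and 3 also moved it by over 1.5 times. Of 24 genes of peroxisomal fatty acid oxidation tested, 3 rose (Acox3, Decr2 and Hacl1), with a median of 0.21, and 2 rose without IRLacz replicate 1 (median 0.13). The 3 ranged from 1 to 6 with single libraries left out, and IRLacz replicates 2 and 4 and IR replicates 2, 3 and 5 also moved it by over 1.5 times. Of 15 genes of short-chain fatty acid sensing and use tested, 3 rose (Acss1, Acss3 and Acsm5), with a median of 0.32, and 0 rose without IRLacz replicate 1 (median 0.16). The 3 ranged from 0 to 6 with single libraries left out, and IRLacz replicates 2 and 4 and IR replicates 1, 2 and 3 also moved it by over 1.5 times. Of 16 genes of branched-chain amino acid breakdown tested, 3 rose (Auh, Hibch and Acad8), with a median of 0.37, and 0 rose without IRLacz replicate 1 (median 0.22). The 3 ranged from 0 to 7 with single libraries left out, and IRLacz replicates 2 and 4 and IR replicates 1, 2, 3 and 4 also moved it by over 1.5 times. Of 39 respiratory chain and ATP synthase genes 0 rose and 0 fell by limma (4 were higher at an unadjusted p under 0.05), with a median of 0.17, and 0.068 without replicate 1. The mean level of each list named here, like that of the proximal tubule enzymes, was highest in IRLacz replicate 1. In IRLacz replicate 4 the lists parted. Minus the IR mean, the log2 level was -0.259 for those enzymes, -0.1 for the respiratory chain, 0.074 for mitochondrial fatty acid oxidation and 0.2 for the PGC-1 list. Whether the lists followed the proximal tubule sums was not tested, nor was the part of tubule cell numbers in them.

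Esrrg, a nuclear receptor that drives mitochondrial genes, stood at 12.5, 12.9, 13.6 and 12.6 FPKM in IRLacz, 7.05, 6.82, 5.73, 8.93 and 9.04 in IR and 10.4 to 12.5 in sham. Its 4 IRLacz libraries, replicate 1 included, lay within 1.15 FPKM of each other and above IR (log2 difference 0.72 ± 0.14 SE, adjusted p = 0.00613, and 0.0132 without IRLacz replicate 1). Ppargc1a, the coactivator PGC-1alpha, stood at 12.7, 10.4, 9.17 and 9.7 in IRLacz and 5.38, 5.61, 4.7, 6.91 and 6.76 in IR, also separate (log2 difference 0.74, adjusted p = 0.00634). Its IRLacz level was within or above the 8.94 to 11.7 of sham. Hadha, of the mitochondrial trifunctional protein, stood at 66.5, 62.9, 55.9 and 61.5 in IRLacz and 46.8, 50.2, 46.9, 48.9 and 53.5 in IR (log2 difference 0.32, adjusted p = 0.00908). Decr2, the peroxisomal dienoyl-CoA reductase, stood at 26.1, 25.3, 26.6 and 24.7 in IRLacz and 17.7, 16.6, 20, 21.3 and 21.7 in IR, again with replicate 1 among the rest (log2 difference 0.39, adjusted p = 0.00614). Hacl1, which cleaves 2-hydroxy acids in peroxisomes, stood at 16.96, 32.98, 27.1 and 38.5 in IRLacz, 15.1, 10.9, 13.4, 17.5 and 18.4 in IR and 17.2 to 21.6 in sham. Replicates 2, 3 and 4 were above both and replicate 1 was not (log2 difference 0.86 ± 0.23 SE, adjusted p = 0.0246, and 0.0134 without IRLacz replicate 1), and the call was lost without IRLacz replicate 2 or 4 or IR replicate 2 or 3 (adjusted p up to 0.0755). Ppargc1a, Hadha and Decr2 kept their calls without IRLacz replicate 1 (adjusted p from 0.0146 to 0.025).

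A few genes of glucose use passed the test, in both directions. Of 17 glycolysis genes tested, 3 fell (Hk2, Slc2a1 and Slc16a3; 2 to 3 over single libraries left out), against 7.92% of all entries. In that list 1 rose (Pfkm), against 5.39%, and the median was -0.051. Without IRLacz replicate 1, 2 fell and 1 rose (median -0.064). Pdk1 below is from the citrate cycle and pyruvate dehydrogenase list. There 2 of 27 rose (2 to 9 over single libraries left out), against 5.39% of all entries, and 0 fell, against 7.92%. Hk2, the inducible hexokinase, stood at 1.27, 1.9, 3.09 and 2.88 FPKM in IRLacz, 6.37, 5.43, 6.58, 5.53 and 4.16 in IR and 0.11 to 0.25 in sham (log2 difference -1.04 ± 0.19 SE, adjusted p = 0.00612, and 0.0147 without IRLacz replicate 1). Slc16a3, a lactate exporter, stood at 1.33, 2.05, 1.49 and 3.1 in IRLacz and 4.36, 4.05, 3.79, 3.28 and 3.94 in IR (log2 difference -0.74, adjusted p = 0.0104). Pfkm, the muscle-type phosphofructokinase, stood at 24.97, 24.7, 20.4 and 20.7 in IRLacz, 12.3, 12.9, 10.7, 16.04 and 17.99 in IR and 22.2 to 28.2 in sham (log2 difference 0.68, adjusted p = 0.00658). Pdk1, which inactivates pyruvate dehydrogenase, stood at 9.07, 7.55, 7.12 and 7.23 in IRLacz and 4.12, 4.45, 3.92, 4.36 and 4.94 in IR (log2 difference 0.70, adjusted p = 0.0099). The groups of these 4 genes did not overlap, with Hk2 and Slc16a3 lower and Pfkm and Pdk1 higher in IRLacz. Slc16a3, Pfkm and Pdk1 kept their calls without IRLacz replicate 1 (adjusted p from 0.0178 to 0.0316).

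In nicotinamide metabolism 4 of 28 tested genes rose and 1 fell, against 5.39% and 7.92% of all entries. Without IRLacz replicate 1, 3 rose and 0 fell, against 4.83% and 3.46%. With single libraries left out 1 to 5 rose and 0 to 2 fell. Nnmt, which methylates nicotinamide and so removes it from the pool, stood at 3.41, 5.38, 6.92 and 7.68 FPKM in IRLacz and 13.6, 11.2, 11.4, 9.69 and 9.71 in IR, with no overlap (log2 difference -0.86 ± 0.25 SE, adjusted p = 0.0321, and 0.105 without IRLacz replicate 1), and the call was lost without IRLacz replicate 1 or 2 or IR replicate 1, 2 or 3 (adjusted p up to 0.105). Nampt, the salvage enzyme, stood at 29.3, 24.03, 26.7 and 23.9 in IRLacz and 24.7, 19.4, 24.6, 27.9 and 19.8 in IR, with overlap (log2 difference 0.16 ± 0.10 SE, adjusted p = 0.282, and 0.56 without IRLacz replicate 1; 95% interval from -0.05 to 0.37). Nadk2, the mitochondrial NAD kinase, stood at 24.96, 20.7, 16.6 and 15.6 in IRLacz and 11.3, 12.6, 11.98, 14.4 and 15.7 in IR, where replicate 4 of IRLacz overlapped (log2 difference 0.51 ± 0.12 SE, adjusted p = 0.0112, and 0.0326 without IRLacz replicate 1). Hpd, which breaks down tyrosine, stood at 14.3, 11.4, 5.91 and 6.33 in IRLacz, 2.41, 0.99, 3.22, 2.29 and 4.95 in IR and 32.6 to 48.8 in sham, high in replicates 1 and 2 (log2 difference 1.48 ± 0.40 SE, adjusted p = 0.0244, and 0.0719 without IRLacz replicate 1), and its call was lost without IRLacz replicate 1 or 2 or IR replicate 2 or 3 (adjusted p up to 0.0719).

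The called binding proteins of IGF moved in both directions. Of 14 tested genes of IGF and insulin signalling, 2 rose (Igfbp1 and Igfbp5), against 5.39% of all entries, and 1 fell (Igfbp3), against 7.92%. Without IRLacz replicate 1, 1 rose and 1 fell. The 2 ranged from 1 to 3 with single libraries left out. Igfbp5 lost its call without IRLacz replicate 1 or 2 or IR replicate 2 or 3. Igfbp1, induced by fasting and by FOXO factors, stood at 9.27, 15.5, 5.65 and 8.69 FPKM in IRLacz and 2.58, 2.45, 1.06, 4.01 and 5.36 in IR, with all IRLacz libraries higher (log2 difference 1.42 ± 0.32 SE, adjusted p = 0.0111, and 0.0249 without IRLacz replicate 1). Igfbp3, the main carrier of IGF in blood, stood at 40.3, 39.2, 44.2 and 43.3 in IRLacz, 60.6, 56.1, 70.9, 60.9 and 61.3 in IR and 98.3 to 140.2 in sham (log2 difference -0.56, adjusted p = 0.00613). All IR libraries were below sham already, and all IRLacz libraries lay below IR. In the cholesterol list 5 of 18 fell, against 7.92% of all entries, and 4 without IRLacz replicate 1, against 3.46%. The 5 ranged from 2 to 5 with single libraries left out, and IRLacz replicates 2 and 3 and IR replicate 3 moved it by over 1.5 times. Fdps, which makes farnesyl diphosphate, stood at 30.3, 31.2, 27.4 and 29.3 in IRLacz and 36.7, 41.98, 43.9, 40.6 and 39.99 in IR, without overlap (log2 difference -0.44, adjusted p = 0.0104). Of 23 antioxidant and iron genes tested, 2 rose and 3 fell, Hmox1 among them (median -0.014). In that list 1 rose and 4 fell without IRLacz replicate 1 (median -0.076). Hmox1, heme oxygenase 1, stood at 30.3, 28.6, 37.7 and 34.5 in IRLacz and 54.01, 61.3, 85.4, 56.5 and 48.4 in IR (log2 difference -0.86, adjusted p = 0.0109), and all 4 IRLacz libraries were lower. Igfbp3, Fdps and Hmox1 kept their calls without IRLacz replicate 1 (adjusted p from 0.0149 to 0.0278).

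Against the other gavaged group few entries differed. Between IRLacz and IRLac, 3 of 13594 entries were called (0.0221%) by limma, while 2171 had an unadjusted p under 0.05. Named after their values were seen, they were Pmp22 and Cav3, both lower in IRLacz, and 1 locus without a gene name. Pmp22, a membrane protein of myelin and of growth-arrested cells, stood at 11.6, 11.8, 13.6 and 13.9 FPKM in IRLacz, 19.8, 16.1, 15.97, 19.2 and 17.9 in IRLac and 17.6, 17.8, 17.8, 16.7 and 17.1 in IR (log2 difference from IRLac -0.46, adjusted p = 0.0481). Cav3, a caveolin of muscle, stood at 1.25, 1.07, 0.67 and 1.12 in IRLacz, 3.06, 2.04, 2.32, 2.58 and 2.31 in IRLac and 3.22, 3.15, 3.34, 2 and 3.13 in IR (log2 difference from IRLac -0.77, adjusted p = 0.0191). No IRLacz library overlapped an IRLac library for either gene. The IRLac libraries were themselves far apart: without IRLac replicate 3, 490 entries were called. For 4 genes picked for a clear difference from IR, the 95% interval of the log2 difference from IRLac was also taken. It ran from -1.31 to -0.51 for Rgs16, from -0.95 to -0.31 for Hspa5, from 0.46 to 1.10 for Cirbp and from -1.42 to -0.55 for Acta2. None of the 4 passed the adjusted test. The pick used the same IRLacz libraries, so the distance of these intervals from 0 was partly set by the choice. For Hbegf, whose adjusted p against IR equalled that of Hspa5 and Acta2, the interval ran from -0.59 to -0.09.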

How the data were processed

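Kidney RNA of 19 libraries was sequenced, and the authors deposited 1 table of FPKM per gene entry; the submitters' processing notes name StringTie 1.0.4, HISAT and mm9, a mouse build, with no role given. The table holds 19287 entries, 18238 of them with a gene symbol. The low values fell on steps of whole reads too seldom to recover the reads (of 1448 low values, 41.4% were whole to within 0.1 read, where 20% would be by the width of that window), so no count test was run and the depth is unknown; the 4 and 5 libraries limit the precision. An exact 0 can be a failed estimate, since 27 entries with a median above 5 FPKM have a library listed at 0.

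Columns were matched to samples by their names. limma 3.58.1 in R 4.3.3 was fitted to log2(FPKM + 1) with an intensity trend over all 19 libraries in 4 groups (15 residual degrees of freedom), for entries that reached 1 FPKM in 4 or more libraries, and p-values were Benjamini-Hochberg adjusted over 13594 entries with a threshold of 0.05. A difference on this scale understates the change of low genes. The fit was tested on simulated data.

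The members and the 59 gene lists were chosen with earlier results of these data known, so no list is independent evidence of its direction. From each list with at least 5 tested members up to 3 genes with the smallest adjusted p are named, with the 10 largest rises and falls among non-overlapping entries of at least 5 mean FPKM, 14 genes fixed by name, and the entries called against IRLac; members of a list with 5 or fewer calls were also named after their values were seen. Some genes that this rule names are not reported here. The alternatives were another pseudocount, filter, scaling or model, library weights, a replicate block, and leaving out each library. Promoters are from the RefSeq table of GRCm38.p6 and were matched by symbol; its build differs from mm9, so only names join these sources. Tables of predicted transcription factors were not used.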

Additional observations from a re-analysis of the deposited data

Results flagged for a closer look

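The level of a single library lay far from the others of its group in 8 of 186 pairs of a gene and a group, judged by Dixon's ratio of the gap to the nearest library over the range of the group; chance gives about 1 in 20. IRLacz replicate 1 was the distant library for Ccl8 (1.93 FPKM, the others 4.55 to 4.99), Plk1 (2.99, the others 4.24 to 4.38) and Cd2 (listed at 0, the others 1.82 to 2.12). IR replicate 3 was the distant library for Msr1 (9.87, the others 5.34 to 6.33), Cd68 (54.44, the others 32.78 to 36.49) and Gpnmb (28.6, the others 8.7 to 14.36). IR replicate 2 was distant for Cd2 (1.46, the others listed at 0) and IR replicate 4 for Cav3 (2.0, the others 3.13 to 3.34).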

How the results depend on the processing

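Of 93 genes with library values, 83 were called. Of these, 73 held without IRLacz replicate 1, 66 with each of the 9 libraries left out in turn, and 69 under every other setting. Most of these genes were picked for a small adjusted p or a large separate difference, so they hold better than calls in general. Over all entries, 895 of the 1809 calls held in the same direction without IRLacz replicate 1. Slc34a1, which was not called, changed sign without IRLacz replicate 1 (-0.11), without IR replicate 2 (-0.02) and without IRLacz replicate 1 and IR replicate 5 together (-0.04), and ranged from -0.11 to 0.29 with 1 library left out. The 733 higher entries ranged from 231 to 890 with 1 library left out and the 1076 lower ones from 375 to 1392. Fitting only the 2 groups compared gave 354 higher and 531 lower, library weights gave 1448 higher and 1530 lower (IRLacz replicate 1 had a weight of 0.234), and leaving out IRLacz replicate 1 and IR replicate 5 together gave 708 lower. The cause was not tested beyond fewer libraries in the fit. Against IRLac, the 3 calls became 1 with a pseudocount of 0.1, 0 with a pseudocount of 5 (2254 at an unadjusted p under 0.05), 5 with no filter on low values, 0 with a mean of at least 5 FPKM (1566 at an unadjusted p under 0.05), 1 with only the 2 groups compared and 167 with library weights, and ranged from 1 to 490 with 1 library left out. With the replicate block, 671 entries were higher and 903 lower and 1 differed from IRLac; 3 of the 93 genes lost their call. The labels do not say whether same-numbered libraries are paired. Deviations from the group means correlated at -0.296, -0.067, 0.226 and -0.219 for same-numbered IRLacz and IR libraries. For differently numbered libraries they ran from -0.353 to 0.42. With so few libraries these values cannot decide whether the numbers pair them. Median-ratio scaling, quantile normalization and TPM moved the median of all entries to between -0.00519 and 0.0156, and the antioxidant list alone changed the sign of its median, under quantile normalization. Depth is unknown, each group is small, and neither gavage nor cell makeup could be separated from the strain.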
